A study of Homo sapiens with 4 samples.

Results

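Mitochondrial ribosomal protein genes were taken as every protein-coding gene of the deposited table whose symbol is MRPL or MRPS followed by a number and, where present, 1 letter, and which was read in all 4 libraries. There were 78 such genes among the 51103 of the table, 49 named MRPL and 29 named MRPS. Polyadenylated RNA was sequenced from CAL27 and SCC15, established lines of human oral squamous cell carcinoma. The groups were CAL27 with decitabine, SCC15 with decitabine, CAL27 with DMSO and SCC15 with DMSO, with 1 library each. Decitabine (5-AZA-CdR, also labelled DAC) was given at 10 µM for 48 h, and DMSO is its solvent. Decitabine is a cytidine analogue that is built into DNA, where it traps DNA methyltransferases and so lowers DNA methylation in dividing cells. The question named in the labels was which genes differ in expression after this treatment.

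Mitochondria keep their own ribosome, which translates the few mRNAs of the mitochondrial genome into subunits of the respiratory chain and of ATP synthase. Its RNAs are transcribed inside the organelle, whereas all of its proteins are encoded in the nucleus, made in the cytosol and imported, so the 2 genomes have to supply 1 machine. Some of the proteins have bacterial homologues and others are found only in mitochondria, where they surround a reduced RNA core. By assignment from the known human structure, 51 of the 78 genes encode large subunit proteins, including MRPS30 and MRPS18A despite their names, and 26 encode small subunit proteins. The remaining gene, MRPS36, is now assigned to the oxoglutarate dehydrogenase complex.

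No mitochondrial ribosomal protein gene passed the test for a shared response to decitabine, and as a list they stood slightly on the low side in both lines. Between the lines, 22 of the 78 (28.2%) differed, 16 higher and 6 lower in SCC15, a smaller share than the 44.2% of all tested genes. The bases upstream of 5 of these genes are shown first because these genes carry the patterns described afterwards. MRPL3 and MRPL42 had negative decitabine ratios in both lines, MRPS18A and MRPL28 had ratios of opposite sign in the lines, and MRPL17 held the rarest motif. Each stretch lies upstream of the RefSeq transcript start on GRCh38.p14 and leaves out any base that GENCODE 29 places in an exon. The stretch of MRPL28 lies inside that gene as GENCODE 29 draws it, because the RefSeq start is further downstream. All are given 5′ to 3′ on the strand of the gene, with motif matches in capitals. MRPL3 lies at chr3:131502984-131503221 on the minus strand, and MRPL42 at chr12:93467264-93467487 on the plus strand. MRPS18A lies at chr6:43687792-43688041, MRPL28 at chr16:370539-370772 and MRPL17 at chr11:6683402-6683590, all on the minus strand.
MRPL3: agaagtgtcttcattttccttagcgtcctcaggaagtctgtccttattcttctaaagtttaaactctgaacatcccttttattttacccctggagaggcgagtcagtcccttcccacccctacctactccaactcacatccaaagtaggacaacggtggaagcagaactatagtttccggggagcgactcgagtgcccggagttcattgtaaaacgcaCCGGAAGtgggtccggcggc
MRPL42: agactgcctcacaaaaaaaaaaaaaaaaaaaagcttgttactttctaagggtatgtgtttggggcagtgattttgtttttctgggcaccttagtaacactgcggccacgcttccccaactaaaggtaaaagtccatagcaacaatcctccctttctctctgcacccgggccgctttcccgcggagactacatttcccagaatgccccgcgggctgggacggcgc
MRPS18A: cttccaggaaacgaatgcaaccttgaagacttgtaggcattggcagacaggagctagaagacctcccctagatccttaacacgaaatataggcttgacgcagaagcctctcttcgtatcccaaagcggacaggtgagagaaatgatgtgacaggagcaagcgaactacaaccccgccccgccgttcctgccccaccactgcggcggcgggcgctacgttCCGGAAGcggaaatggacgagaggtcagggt
MRPL28: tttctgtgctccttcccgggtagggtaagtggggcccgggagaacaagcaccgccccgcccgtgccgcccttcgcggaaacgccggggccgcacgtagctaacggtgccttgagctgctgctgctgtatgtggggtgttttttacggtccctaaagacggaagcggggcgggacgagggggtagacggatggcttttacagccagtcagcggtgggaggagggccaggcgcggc
MRPL17: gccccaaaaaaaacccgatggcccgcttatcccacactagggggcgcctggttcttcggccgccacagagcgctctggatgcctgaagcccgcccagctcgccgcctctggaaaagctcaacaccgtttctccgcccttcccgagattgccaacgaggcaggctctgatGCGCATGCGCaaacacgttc

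The capitals in MRPL3 and MRPS18A mark the ETS motif CCGGAAG, which begins 32 and 31 bases before the transcript start. The capitals in MRPL17 mark the palindromic motif of NRF1 (the full run of capitals), which begins 81 bases before it. NRF1 and the ETS factor GABPA are known regulators of nuclear genes for mitochondrial proteins. Windows of 250 bases were found in the RefSeq table for 70 of the 78 genes, taking the first window where a gene had more than 1, and matches were counted on both strands. The other 8 were MRPL2, MRPL10, MRPL13, MRPL15, MRPL21, MRPL23, MRPL35 and MRPS28. CCGGAAG was in 23 of the 70 windows (32.9%), against 15.4% of 10423 windows of tested protein-coding genes and 8.52% of all 35116 windows of the table. The NRF1 motif was in 1 of the 70 windows (1.43%), against 1.86% of the tested protein-coding genes and 1.03% of all windows. The YY1 motif AANATGGCG was in 3 windows (4.29%, against 2.23% and 1.38%), and the E-box CACGTG was in 7 (10%, against 8.70% and 6.34%). The number of CpG dinucleotides, the sites at which DNA methylation occurs, had a median of 19.5 in the 70 windows and ranged between 3 and 46, against a median of 21 in the tested protein-coding genes. Methylation itself was not measured. The 23 genes with the ETS motif had a median decitabine ratio of -0.29 in CAL27 and -0.19 in SCC15 on the log2 scale, and the 47 without it had -0.15 and -0.19. Across the 70 genes, the CpG count had a Spearman correlation of 0.21 with the ratio in CAL27 and 0.13 in SCC15, given as a description over genes that share the same 4 libraries.

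The libraries held 14714809 reads for CAL27 with decitabine, 17583706 for SCC15 with decitabine, 14524461 for CAL27 with DMSO and 14830807 for SCC15 with DMSO. Of 13 squamous epithelial markers, 0 were without reads in either CAL27 library, whereas 6 were at 0 in SCC15 with decitabine and 9 in SCC15 with DMSO. Their summed level, as CPM after TMM scaling, was 1625 and 1599 in CAL27 with decitabine and with DMSO, and 6.26 and 3.72 CPM in SCC15. The 4 mesenchymal markers summed to 193 and 188 CPM in CAL27 and to 2117 and 3118 CPM in SCC15 in the same order. VIM made up most of the SCC15 sum, with 1611 and 2666 CPM, and CDH2 went the other way, with 14 and 0 reads in SCC15 and 786 and 917 in CAL27. SCC15 therefore stands here for cells that carry that label and lack the defining squamous markers. Each group was 1 culture, so the cell line served as the replicate of the treatment and every p-value speaks of these 2 lines. In such bulk RNA a change in the number of cells of a kind and a change in RNA per cell cannot be told apart.

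The typical mitochondrial ribosomal protein gene was expressed above the typical tested gene, at a like level in all 4 libraries. Their reads made up 0.424% of the CAL27 decitabine library (Wilson 95% interval 0.420 to 0.427%) and 0.469% of the CAL27 DMSO library (0.465 to 0.472%). In SCC15 the shares were 0.452% with decitabine (0.449 to 0.455%) and 0.536% with DMSO (0.532 to 0.539%). These intervals cover counting error only, since PCR reads without molecular identifiers are not independent molecules. On the FPKM scale, which divides by transcript length and so allows genes to be compared, the median gene stood at 16.3 and 16.2 in CAL27 with decitabine and with DMSO, and at 16.1 and 17.9 in SCC15. Over all 15427 tested genes the medians were 4.14 and 3.66 in CAL27, and 3.69 and 3.35 in SCC15. All 78 passed the filter on low counts.

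The 4 genes with the highest mean FPKM were MRPS34, MRPL3, MRPL15 and MRPS35. MRPS34, a mitochondria-specific protein of the small subunit, had 93.8 and 101 FPKM in CAL27 with decitabine and with DMSO, and 156 and 148 FPKM in SCC15. MRPL3, the counterpart of bacterial L3 near the peptidyl transferase centre, had 84.4 and 127 FPKM in CAL27, and 69.6 and 107 FPKM in SCC15. Its decitabine library was the lower one in both lines. MRPL15, the counterpart of bacterial L15, had 38.9 and 51.4 FPKM in CAL27, and 105 and 160.0 FPKM in SCC15. MRPS35, a mitochondria-specific small subunit protein, had 41.2 and 48.8 FPKM in CAL27, and 104 and 158 FPKM in SCC15. Both were higher in each SCC15 library than in either CAL27 library.

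At the other end, 4 genes averaged under 1 FPKM. MRPL38 had 0.204 and 0.32 FPKM in CAL27, and 0.264 and 0.295 FPKM in SCC15. MRPL46 ranged between 0.239 and 0.493 FPKM and MRPS18C between 0.346 and 0.41 FPKM over the 4 libraries. MRPS24 had 1.38 and 1.05 FPKM in CAL27 but 0.0435 and 0.155 FPKM in SCC15. Each of these genes shares exon bases with another annotated gene, 41.1% of its exon length for MRPL38, 40.2% for MRPS18C, 23.2% for MRPS24 and 11.3% for MRPL46. Reads in shared bases can be dropped or split in counting, so these low levels are uncertain. The strand setting of the counting is not given in the sources used here, so a gene's reads and those of an antisense partner cannot be told apart. Among the other 74 genes, 36 shared some exon bases, and in the 38 of the 78 with none, a split chosen after seeing the data, the medians of the decitabine ratio were -0.20 in CAL27 and -0.22 in SCC15, close to those of the full list given below.

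**Figure D1:**
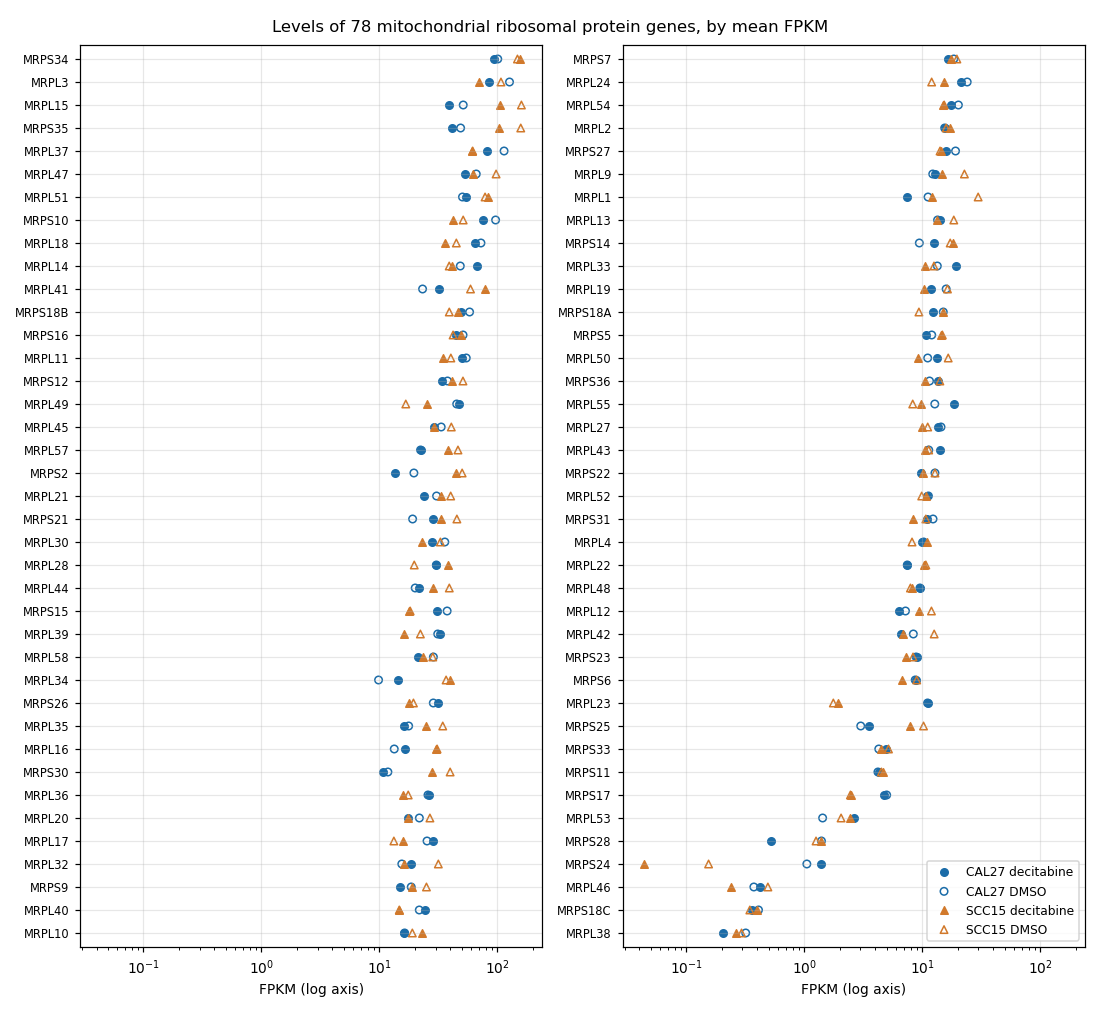
FPKM of each of the 78 mitochondrial ribosomal protein genes on a log axis, ordered by mean, with 1 point per library (circles CAL27, triangles SCC15, filled decitabine, open DMSO). Most genes lie between 10 and 50 FPKM with their 4 points close together, and MRPS24 has its SCC15 points far below its CAL27 points.

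The response to decitabine was tested first as an effect shared by both lines, in a model with cell line and treatment as terms. None of the 78 genes was higher and none lower at an adjusted p under 0.05 by edgeR's quasi-likelihood test with Benjamini-Hochberg adjustment over the 15427 tested genes. Of all tested genes, 0.544% were higher and 0.0778% lower. At an unadjusted p under 0.05, 0 of the 78 were higher and 5 lower, MRPL1, MRPL3, MRPL42, MRPL19 and MRPL15, where the background shares were 7.78% and 2.57%. DESeq2 also called 0, with 6 lower at an unadjusted p under 0.05, a threshold at which its share of all genes was not taken. The smallest adjusted p among the 78 was 0.156, for MRPL1.

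The log2 ratios of decitabine over DMSO had a median of -0.20 over the 78 genes in CAL27, against 0.00 over all tested genes, and of -0.19 in SCC15, against 0.05. The fitted shared fold had a median of -0.20, against 0.04. The ratio was negative in 58 genes in CAL27 and in 52 in SCC15. It was negative in both lines in 39 genes (50% of the 78), against 27.6% of all tested genes, and positive in both in 7, against 31.0%. The other 32 had ratios of opposite sign, and in 8 of them (10.3% of the 78) both 95% counting intervals were clear of 0, where 11.0% of all tested genes met that description. Ratios of the 78 were packed more closely than those of all tested genes, with an interquartile range of 0.40 in CAL27 and 0.54 in SCC15 against 0.56 and 0.97. That is not particular to these genes. The range was narrower for cytosolic ribosomal protein genes (0.27 and 0.41) and wider for genes with complex I symbols (0.44 and 0.66). All tested genes had a lower median level, and the comparison was not matched for level. Past 2-fold, 0 of 78 genes were higher and 1 lower in CAL27 (MRPS28), where 5.14% and 1.29% of all genes with at least 1 CPM in either library were. In SCC15, 0 of 77 were higher and 2 lower (MRPL1 and MRPL46), against 13.2% and 6.51%. When libraries were scaled to their total count alone, the median over all genes moved to 0.14 in CAL27 and 0.07 in SCC15, that of the 78 genes to -0.06 and -0.17, and 31 were negative and 13 positive in both lines.

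**Figure D2:**
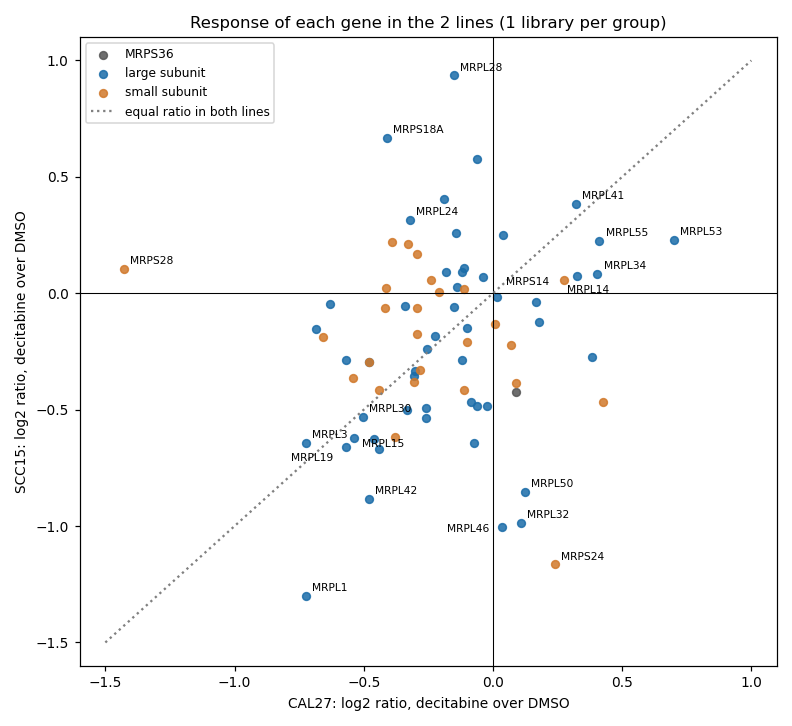
Log2 ratio of decitabine over DMSO for each of the 78 genes, CAL27 on the horizontal and SCC15 on the vertical axis, 1 library per group, with the dotted line at equal ratios. The lower left field holds 39 genes and the upper right field 7. MRPL1 is the lowest point in SCC15 and MRPS28 the lowest in CAL27.

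The 6 genes with the most negative ratio in the weaker of the 2 lines were all large subunit genes, as 51 of the 78 are. This ranking changed once the trend with transcript GC content was removed, as given below. MRPL1 encodes the protein of the L1 stalk, which in bacteria handles the tRNA leaving the ribosome, and lies at chr4:77862520-77952790. It had 13.1 CPM with decitabine and 21.8 CPM with DMSO in CAL27, and 24.9 and 61.5 CPM in SCC15, after TMM scaling. The decitabine library was the lower one in both lines, with log2 ratios of -0.72 (95% counting interval -0.99 to -0.47) and -1.30 (-1.48 to -1.13). The fitted shared log2 fold was -1.02 (SE 0.32, adjusted p = 0.156, quasi-likelihood test), so it did not pass. MRPL3 had 208 CPM with decitabine and 344 CPM with DMSO in CAL27, and 198 and 309 CPM in SCC15. Its ratios of -0.72 and -0.64 were nearly equal in the lines and its shared log2 fold was -0.68 (SE 0.28, adjusted p = 0.361).

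MRPL42, a mitochondria-specific protein, had 98.9 CPM with decitabine and 138 CPM with DMSO in CAL27, and 119 and 220.0 CPM in SCC15. Its ratios were -0.48 and -0.88, and the adjusted p was 0.368. MRPL19, the counterpart of bacterial L19 at the interface of the subunits, had 49.5 CPM with decitabine and 73.5 CPM with DMSO in CAL27, and 50.6 and 80.1 CPM in SCC15. Its ratios were -0.57 and -0.66, with an adjusted p of 0.432. For MRPL15 the ratios were -0.54 and -0.62 (adjusted p = 0.478), and for MRPL30 they were -0.50 and -0.53 (adjusted p = 0.539). That the decitabine library lay below the DMSO library in both lines follows from how these genes were chosen. None of their shared folds passed the threshold.

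The positive side was shallower. MRPL41, a mitochondria-specific large subunit protein, had 36.6 CPM with decitabine and 29.3 CPM with DMSO in CAL27, and 103 and 79.3 CPM in SCC15. Its decitabine library was the higher one in both lines, with ratios of 0.32 and 0.38 and a shared log2 fold of 0.35 (SE 0.28, adjusted p = 0.716). MRPL55, MRPL34, MRPL14, MRPL53 and MRPS14 followed, with CAL27 ratios between 0.28 (MRPS14) and 0.70 (MRPL53) and SCC15 ratios between 0.06 (MRPS14) and 0.23 (MRPL53). The counting intervals of all 5 in SCC15 included 0. Once the GC trend of all genes was removed, as given below, MRPL41 had -0.03 in CAL27 and -0.35 in SCC15. MRPL55, MRPL34, MRPL14 and MRPL53 then had SCC15 ratios between -0.33 (MRPL14) and -0.05 (MRPL53). Of these rising genes only MRPS14 stayed positive in both lines, with 0.36 in CAL27 and 0.37 in SCC15. MRPL53 rested on few reads, 52 with decitabine and 28 with DMSO in CAL27, and 58 with decitabine and 41 with DMSO in SCC15.

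In several genes the ratios of the 2 lines lay apart. MRPL28, the counterpart of bacterial L28, had 83.2 CPM with decitabine and 92.4 CPM with DMSO in CAL27, and 122 and 63.7 CPM in SCC15. It was highest in SCC15 with decitabine, with a ratio of 0.94 (0.82 to 1.05) there and -0.15 (-0.26 to -0.04) in CAL27. MRPL24, the counterpart of bacterial L24, had 32.6 CPM with decitabine and 40.8 CPM with DMSO in CAL27, and 27 and 21.7 CPM in SCC15. Its ratio was 0.32 in SCC15 and -0.32 in CAL27. Once the GC trend of all genes was removed, the SCC15 ratio was -0.07 for MRPL24 and 0.33 for MRPL28. Both genes stayed below 0 in CAL27. MRPS28, the counterpart of bacterial S1, had 14 reads with decitabine and 37 with DMSO in CAL27, and 44 and 34 in SCC15. Its CAL27 ratio of -1.43 had an interval of -2.56 to -0.64, the SCC15 ratio of 0.10 one of -0.57 to 0.80, and 35.8% of its exon length is shared with another gene.

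In the opposite direction, MRPL32 had 59 CPM with decitabine and 54.6 CPM with DMSO in CAL27, and 59.8 and 118 CPM in SCC15. It is the counterpart of bacterial L32, and its ratios were -0.99 in SCC15 and 0.11 in CAL27. MRPL50, mitochondria-specific, had ratios of -0.85 in SCC15 and 0.12 in CAL27. MRPL46 and MRPS24 also had lower ratios in SCC15, -1.004 and -1.16, than in CAL27, 0.04 and 0.24, but on few reads. MRPL46 had 27 and 47 reads in SCC15, and MRPS24 had 2 and 6, for which the 95% counting interval ran from -5.19 to 0.64. With 1 library per group, the difference between the lines' ratios was not tested for any of these genes.

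By part of the ribosome, none of the subgroups held a gene past the threshold. The 30 large subunit genes with a bacterial homologue had median ratios of -0.17 in CAL27 and -0.26 in SCC15, with 17 negative in both lines. The 21 mitochondria-specific large subunit genes had -0.12 and -0.12, with 10 negative in both. The 16 small subunit genes with a bacterial homologue had -0.29 and -0.12, with 8 negative in both, and the 10 mitochondria-specific ones had -0.27 and -0.22, with 4. All 8 medians were below 0, and differences among the subgroups were not tested.

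Most of the genes named next, for the stalk or for known special roles, had negative ratios in both lines. MRPL10, MRPS16 and MRPS36 had ratios of opposite sign. MRPL10, MRPL11 and MRPL12 build the factor-binding stalk and its base, and MRPL12 also binds the mitochondrial RNA polymerase. MRPL11 had ratios of -0.26 in CAL27 and -0.24 in SCC15, MRPL12 of -0.30 and -0.36, and MRPL10 of -0.14 and 0.26. Of the MRPL12 exon length, 68.2% is shared with another gene. MRPL45, which anchors the ribosome to the inner membrane, had -0.33 and -0.50. MRPL58, a peptidyl-tRNA hydrolase built into the large subunit that frees stalled chains, had -0.57 and -0.29. MRPL44, whose variants are known from inherited cardiomyopathy, had -0.02 and -0.48.

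In the small subunit, MRPS12, the counterpart of the bacterial streptomycin-site protein S12, had ratios of -0.28 in CAL27 and -0.33 in SCC15. MRPS22 and MRPS16, both known from inherited deficiencies of oxidative phosphorylation, had -0.54 and -0.36, and -0.33 and 0.21. MRPS30, a large subunit protein in spite of its symbol, had -0.26 and -0.54. MRPS36 had 0.09 and -0.43. The adjusted p of the shared fold in these 11 genes lay between 0.609 (MRPS22) and 0.969 (MRPS16).

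The 3 paralogues of bacterial S18 sit in different places, MRPS18B and MRPS18C in the small subunit and MRPS18A in the large one. MRPS18B was the most abundant, with 48.8 and 58.2 FPKM in CAL27 with decitabine and with DMSO, and 46.1 and 39.1 FPKM in SCC15. MRPS18A had 12.5 and 15.1 FPKM in CAL27, and 15.1 and 9.4 FPKM in SCC15, and MRPS18C stayed under 1 FPKM in all 4 libraries. The order of the 3 was the same in every library. MRPS18A had a ratio of -0.41 (-0.67 to -0.16) in CAL27 and 0.67 (0.41 to 0.94) in SCC15, and MRPS18B -0.39 and 0.22. Both were thus below their control in CAL27 and above it in SCC15, and the MRPS18C intervals included 0 in both lines. Once the GC trend of all genes was removed, the SCC15 ratio was 0.20 for MRPS18A and -0.01 for MRPS18B. RSPH9 shares 47% of the MRPS18A exon length.

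Transcript GC content moved with the ratio in SCC15, for all genes as for these. Over the 78 genes the Spearman correlation between GC content and ratio was 0.56 in SCC15 and 0.09 in CAL27, against 0.50 and 0.25 over the 15427 tested genes, as a description over genes measured in the same libraries. In SCC15 the 26 genes of lowest GC content had a median ratio of -0.47, the middle 26 had -0.12 and the 26 highest had -0.03. All tested genes in the same GC ranges had medians of -0.31, 0.06 and 0.50. In CAL27 the medians were -0.28, -0.16 and -0.17 for the 78, and -0.09, -0.04 and 0.16 for all tested genes. In every one of these 6 strata the mitochondrial ribosomal protein genes had the lower median. With the GC trend of all genes removed, the CAL27 median of the 78 was -0.22 and the SCC15 median -0.29, 47 (60.3%) were negative and 5 positive in both lines, against 27.95% of all tested genes negative in both. In that fit 12 of the 78 were lower at an unadjusted p under 0.05. The share of all genes at that threshold was not taken for this fit, so the count has no background. After adjustment 0 of all 15427 genes passed in either direction, so the adjusted test says nothing about these genes. Ranked by the weaker line once the GC trend was removed, MRPL38 (-0.78, SCC15), MRPS2 (-0.75, SCC15) and MRPL21 (-0.66, CAL27) stood below MRPL1 (-0.64, CAL27). MRPS2 is a small subunit gene, so the leading genes were then not all of the large subunit. MRPL38 rested on few reads. MRPL15, MRPL3, MRPL42, MRPL30 and MRPL19 then lay between -0.49 (MRPL15, CAL27) and -0.27 (MRPL19, SCC15). What part GC content has in the ratios was not tested further.

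**Figure D3:**
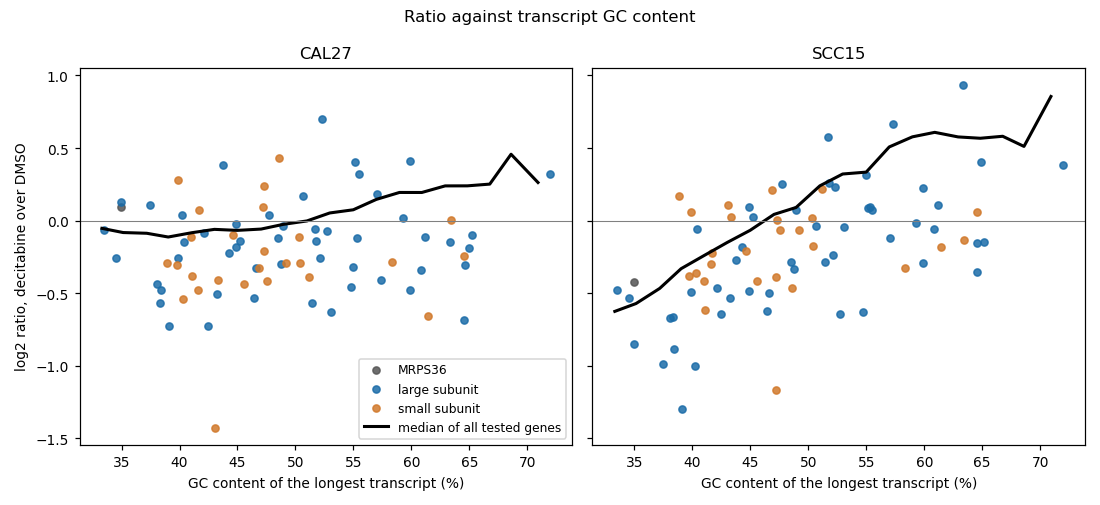
Log2 ratio of decitabine over DMSO against the GC content of the longest transcript for the 78 genes, CAL27 left and SCC15 right, with the running median of all 15427 tested genes as a line. The line climbs with GC content, more so in SCC15, and above a GC content of 50% most of the 78 points lie below it in both lines.

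The other genes of mitochondrial translation were set beside these 78. The 5 ribosome proteins with other names had 0 calls and median ratios of -0.04 in CAL27 and -0.18 in SCC15. DAP3, the GTP-binding protein of the small subunit, had -0.04 in CAL27 and 0.01 in SCC15, and PTCD3 had 0.04 and -0.41. GADD45GIP1 had -0.53 and -0.19, below its control in both lines, while CHCHD1 (0.32 and -0.18) and AURKAIP1 (-0.23 and 0.44) differed in sign. The 27 genes of ribosome assembly and rRNA modification had medians of -0.19 and -0.23, and 0 passed. FASTKD2, which binds mitochondrial rRNA, had the most negative ratio in the weaker line, -0.63 in CAL27 and -0.78 in SCC15 (adjusted p = 0.339, edgeR), and MPV17L2 the most positive, 0.25 and 0.20. The 15 translation factors had -0.13 and -0.30, with 9 negative in both lines and 0 calls. Among them MTIF2, the initiation factor that brings the first tRNA to the small subunit, had 51.4 CPM with decitabine and 93 CPM with DMSO in CAL27, and 47.9 and 101 CPM in SCC15, below the DMSO level in both lines. Its shared log2 fold of -0.97 was the most negative of the 15 (adjusted p = 0.119), and GFM2, an elongation factor homologue that recycles ribosomes, had positive ratios in both lines, 0.09 and 0.03. Of 20 aminoacyl-tRNA synthetase and amidotransferase genes, 19 were tested, with 0 calls, a median of -0.18 in CAL27 and one of 0.12 in SCC15. AARS2, the alanyl-tRNA synthetase, had 0.37 and 0.89, and QRSL1, an amidotransferase subunit, had -0.66 and -0.35.

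Messenger RNAs of the mitochondrial genome, the templates that this ribosome reads, moved on another scale. Of 13 such genes 12 were tested, with median ratios of -0.89 in CAL27 and -2.07 in SCC15. All 12 were negative in both lines, and 8 fell at an adjusted p under 0.05 in edgeR's quasi-likelihood test. MT-CO1, a core subunit of cytochrome oxidase, had 156952 reads with decitabine and 284245 with DMSO in CAL27, and 53480 and 276918 in SCC15. Its shared log2 fold was -1.82 (adjusted p = 0.00554). No mitochondrial ribosomal protein gene reached the median of this list in CAL27 except MRPS28, and none did so in SCC15. Reads of the whole mitochondrial genome made up 4.28% of the CAL27 library with decitabine and 7.24% with DMSO (Wilson 95% intervals 4.27 to 4.29% and 7.23 to 7.26%), and 1.52% and 7.60% of the SCC15 libraries (1.52 to 1.53% and 7.59 to 7.61%). Leaving these genes out of the scaling kept the medians of the 78 at -0.20 and -0.18. The 2 ribosomal RNAs of mitochondria were not analysed here.

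Cytosolic ribosomal protein genes, 78 of 81 tested, had a CAL27 median of -0.09 and an SCC15 median of -0.17, with 37 negative in both lines and 0 calls. Nuclear genes with the symbols of complex I subunits, a list made by symbol alone and including NDUFA4, were tested in 37 of 38 cases. They had medians of 0.01 and -0.13, with 15 negative in both and 0 calls. The medians of the mitochondrial ribosomal protein genes were lower than those of both lists in both lines, by less than the interquartile range of any of them. No test was made of these differences. In SCC15 the medians were close to those of the cytosolic list, -0.185 against -0.174. Of the cytosolic list 47.4% were negative in both lines, near the 50% of the mitochondrial ribosomal protein genes. The translation factors and the assembly genes had lower SCC15 medians, -0.30 and -0.23.

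**Figure D4:**
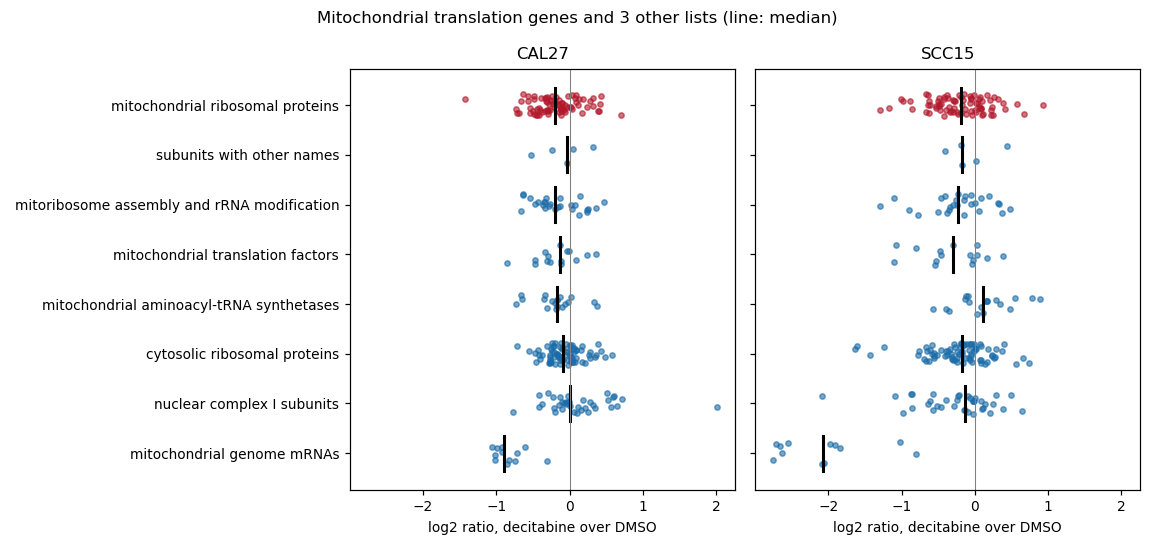
Log2 ratio of decitabine over DMSO of every tested gene in 8 lists, CAL27 left and SCC15 right, with a bar at each median. The 78 mitochondrial ribosomal protein genes, in red, lie around -0.20 and -0.19, and the mitochondrial genome mRNAs lie apart at -0.89 and -2.07.

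The same genes were then compared between the 2 cell lines. Each line had 1 decitabine and 1 DMSO library, so the test takes the line difference as equal under both. With 1 residual degree of freedom per gene, its p-values lean on a spread pooled over genes (36.1 prior degrees of freedom). In the line coefficient of the same model, 16 of the 78 genes were higher and 6 lower in SCC15 than in CAL27 at an adjusted p under 0.05 (edgeR). These 22 were 28.2% of the 78, where 44.2% of all tested genes differed, 21.6% higher and 22.7% lower. The median difference was 0.18 on the log2 scale, against 0.00 over all tested genes. Scaling by total count alone shifted the median of all genes to -0.15 and the split of the 78 to 14 higher and 11 lower, while 18.97% of all genes were then higher and 26.6% lower. The median of the 78 lay 0.18 above that of all genes under either scaling. On the authors' FPKM, tested with limma on log2(FPKM + 1), the split was 15 higher and 15 lower, against 18.2% and 25.4% of all genes, and the median of the 78 lay 0.11 above that of all genes. Of the 22 calls, 11 of the 16 higher and 3 of the 6 lower passed in all 11 other analyses of this test. In the main fit, cytosolic ribosomal protein genes had a median line difference of 0.74, with 41 of 78 tested genes higher and 1 lower. For genes with complex I symbols it was 0.51, with 12 of 37 higher and 0 lower. A higher median in SCC15 is thus not particular to the mitochondrial ribosomal protein genes.

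MRPL34, the counterpart of bacterial L34, was the most different gene on the high side. It had 69.7 CPM with decitabine and 65.8 CPM with DMSO in SCC15, against 22 and 16.6 CPM in CAL27. The SCC15 libraries lay above both CAL27 libraries, with a log2 fold of 1.83 (SE 0.30, adjusted p = 3.77e-06). MRPS30 had 181 and 262 CPM in SCC15, against 61 and 73.1 CPM in CAL27, a log2 fold of 1.70 (SE 0.29, adjusted p = 7.80e-06). MRPL15 had 131 and 202 CPM in SCC15, against 42.1 and 61.1 CPM in CAL27, a log2 fold of 1.68 (SE 0.29, adjusted p = 8.64e-06). Both genes were separated by line with no overlap, which the choice of the largest differences makes likely.

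MRPS2, the counterpart of bacterial S2, had 116 and 131 CPM in SCC15, against 30.5 and 48.2 CPM in CAL27 (log2 fold 1.68, SE 0.29, adjusted p = 9.05e-06). MRPS35 had 216 and 332 CPM in SCC15, against 74.1 and 96.5 CPM in CAL27 (log2 fold 1.66, SE 0.29, adjusted p = 1.08e-05). These genes, like MRPL34, MRPS30 and MRPL15, were picked as the largest rises among the genes called in this test. That their libraries do not overlap between the lines is therefore no further result. The share of all genes without overlap was not taken. The other 11 higher genes, named because they complete the count, were MRPS25 (1.61), MRPL41 (1.47), MRPL1 (1.21), MRPL16 (1.19), MRPL57 (1.06), MRPL35 (0.93), MRPS21 (0.88), MRPS14 (0.85), MRPL44 (0.82), MRPS34 (0.79) and MRPL51 (0.78), each with its log2 fold.

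On the low side, MRPS24, the counterpart of bacterial S3, had 2 and 6 reads in SCC15 with decitabine and with DMSO, against 53 and 40 reads in CAL27. The log2 fold was -3.51 (SE 0.84, adjusted p = 0.000793). A readthrough gene, URGCP-MRPS24, shares 23.2% of its exon length, so the counts may hold only part of its reads. MRPL23, the counterpart of bacterial L23 at the exit of the peptide tunnel, had 6.02 and 5.58 CPM in SCC15, against 30.5 and 33.1 CPM in CAL27. Its log2 fold was -2.45 (SE 0.36, adjusted p = 5.65e-07), the largest difference among the genes with at least 10 reads in every library. The other 4 were MRPL49 (-1.03, adjusted p = 0.0039), MRPS15 (-0.78, adjusted p = 0.0236), MRPL17 (-0.74, adjusted p = 0.0342) and MRPS10 (-0.73, adjusted p = 0.0338). The calls of the last 3 did not hold throughout: without treatment as a term their adjusted p was 0.0526 (MRPS15), 0.0645 (MRPL17) and 0.0765 (MRPS10) in edgeR, and with no filter on low counts it was 0.0722 for MRPL17 and 0.0520 for MRPS10.

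**Figure D5:**
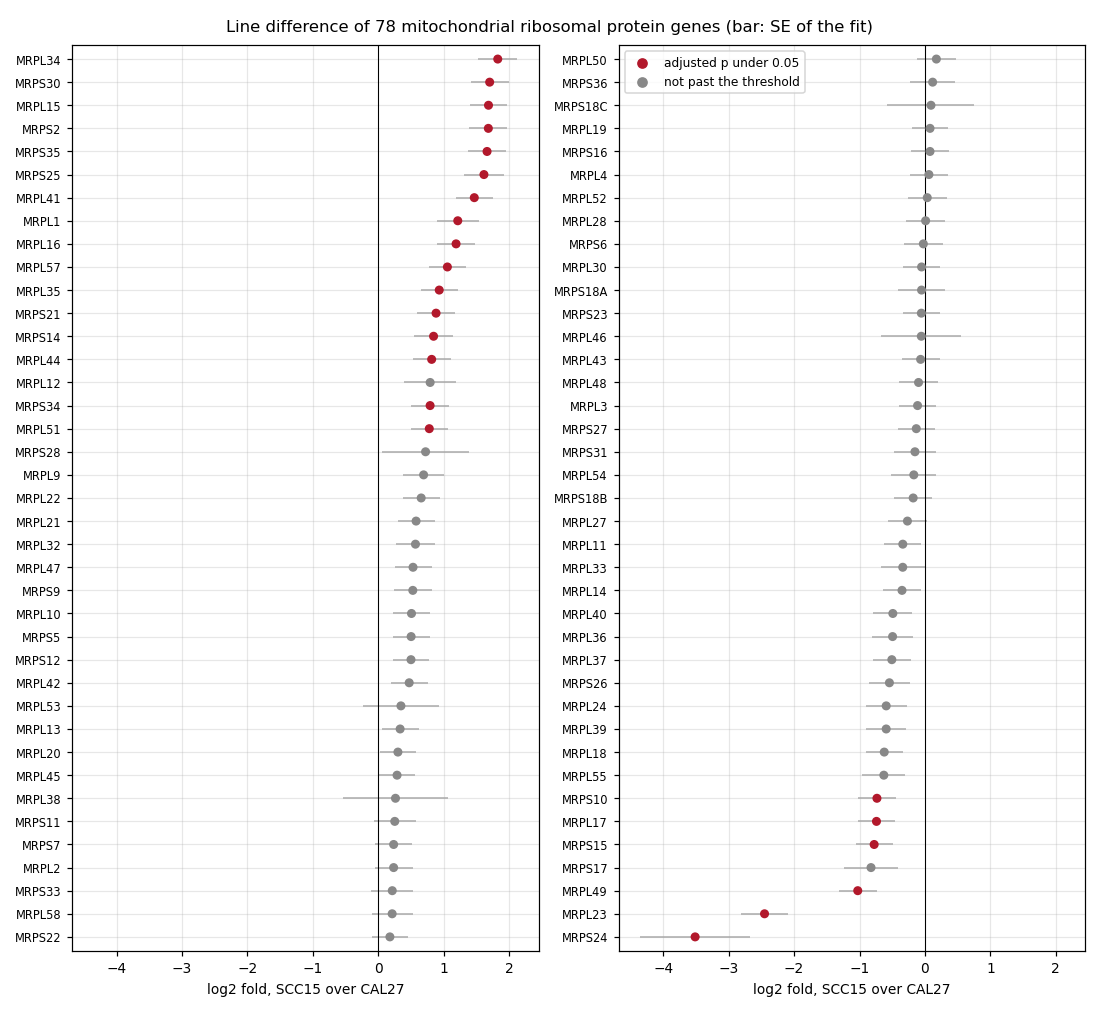
Log2 fold of SCC15 over CAL27 for each of the 78 genes with its standard error from the edgeR fit, in order, red where the adjusted p was under 0.05. MRPL34 heads the list at 1.83, and MRPL23 and MRPS24 stand apart at the low end at -2.45 and -3.51.

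For each gene the median line difference of the other tested genes within 2 Mb was taken from the same fit, as a description with no test. It had the sign of the gene's own difference in 13 of the 16 higher and 5 of the 6 lower genes, and in 31 of the 56 genes that did not pass. The same share was not taken over all genes called by line, so these counts have no background. Several of these medians were small, such as 0.17 for MRPS21 and 0.18 for MRPL1. It was 1.21 over 17 neighbours for MRPS30 on chromosome 5, 1.12 over 30 for MRPS25 on chromosome 3, and 1.00 over 23 for MRPS35 on chromosome 12. MRPS2 and MRPL41, both on chromosome 9 and with windows that overlap, had neighbours at 0.80 over 72 and 0.78 over 66. MRPL49 on chromosome 11 had them at -0.80 over 122. The neighbours of MRPL15, MRPL34 and MRPL23 had medians of -0.11, 0.20 and 0.06, where these genes had log2 folds of 1.68, 1.83 and -2.45. Copy number was not measured here.

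MRPL23 lies 10.7 kb from the imprinted gene H19 on chromosome 11, a noncoding RNA gene whose paternal copy is normally methylated and silent. H19 had 44 reads with decitabine and 3 with DMSO in CAL27, and 205 and 0 reads in SCC15, and it rose at an adjusted p of 0.000738 (edgeR). MRPL23 had 495 reads with decitabine and 481 with DMSO in CAL27, and 101 with decitabine and 78 with DMSO in SCC15. Its ratios of -0.11 and 0.11 had counting intervals that included 0, and its shared fold had an adjusted p of 0.995.

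A further 77 identifiers carry mitochondrial ribosomal protein names without meeting the rule, nearly all of them pseudogenes, and 57 of them had no reads in any library. Together they had 133 and 84 reads in CAL27 with decitabine and with DMSO, and 264 and 337 reads in SCC15. Only MRPL45P2, MRPL35P2, MRPS31P4, MRPS31P5 and MRPS30-DT had 10 or more reads in a library.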

How the data were processed

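For every gene the deposited table gives raw read counts, as whole numbers, beside FPKM values made by the authors from those counts. The submitters' processing notes name HISAT2, HTSeq 0.13.5 and GRCh38, without settings. All 51103 identifiers were found in GENCODE 29, which supplied coordinates, exon overlap and transcript GC content (longest transcript per gene).

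Tests used edgeR 4.0.16 in R 4.3.3 (quasi-likelihood, TMM, filterByExpr with minimum count 10 and minimum total 15, cell line and treatment as terms, all 4 libraries), which left 15427 genes, and Benjamini-Hochberg adjustment over all of them with a threshold of 0.05. The terms pair each decitabine library with the DMSO library of its own line, as the labels give it. Ratios within a line used a prior count of 2 and exact conditional binomial 95% intervals, which cover counting error only. CPM values are TMM-scaled. DESeq2 1.42.0 and limma 3.58.1 (on the authors' deposited FPKM, log2 scale) were alternatives, with other scalings, filters, prior counts, trend removals and left-out libraries. The scripts were tested on simulated data.

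The genes named were those with the largest ratios in the weaker line (6 each way), the widest gaps between lines (4 each way), the 4 highest and 4 lowest by mean FPKM, up to 5 each way by line difference, and a list by role. Members, lists and tests were chosen with earlier results of these data known.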

Additional observations from a re-analysis of the deposited data

Results flagged for a closer look

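In 8 genes the decitabine ratio had opposite signs in the 2 lines and both 95% counting intervals were clear of 0. They were 10.3% of the 78, near the 11.0% of all tested genes for which the same held, so the count is not a result about these genes. The difference between the lines was not tested, since each group had 1 library, and intervals that cover counting error alone clear 0 often. In CAL27 they were above 0 in 9 and below 0 in 38 of the 78 genes, and in SCC15 above 0 in 10 and below 0 in 40. These counts were not set against all tested genes. The ratio in SCC15 minus that in CAL27 was 1.09 on the log2 scale for MRPL28, 1.08 for MRPS18A, 0.64 for MRPL24, 0.61 for MRPS18B, 0.60 for MRPL4 and 0.54 for MRPS16, in which SCC15 was above its control and CAL27 below. It was -0.90 for MRPS21 and -0.66 for MRPL33, in which CAL27 was above its control and SCC15 below. With the GC trend of all genes removed, the SCC15 ratio was -0.07 for MRPL24, -0.01 for MRPS18B and -0.22 for MRPL4. These genes were then negative in both lines. The SCC15 ratio was then 0.33 for MRPL28, 0.20 for MRPS18A and 0.18 for MRPS16, still opposite in sign to CAL27. MRPS21 and MRPL33 also kept opposite signs. MRPS21, the counterpart of bacterial S21, had 57.1 CPM with decitabine and 79.0 CPM with DMSO in SCC15, and 42.2 and 31.3 CPM in CAL27. MRPL33, the counterpart of bacterial L33, had 17.0 and 20.6 CPM in SCC15, and 27.0 and 20.7 CPM in CAL27. MRPL4, the counterpart of bacterial L4, had 47.0 and 35.5 CPM in SCC15, and 36.7 and 41.8 CPM in CAL27.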

How the results depend on the processing

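In the 11 other analyses of the decitabine test 0 of the 78 genes passed in either direction. Some of these could call almost nothing: of all tested genes, 0 passed with the GC trend removed, 0 with no pairing by line, and 1 higher and 1 lower in limma on log2(FPKM + 1), against between 40 and 334 in the other 8. The smallest adjusted p among the 78 lay between 0.0685 with the length trend removed and 1.00 with no pairing by line. The limits are 1 culture per group, 1 residual degree of freedom per gene and a cell line as the only replicate. The median shared log2 fold of -0.20 was -0.13 under total-count scaling, -0.24 with the GC trend removed, -0.26 with the length trend removed, and -0.10 and -0.13 in limma on log2(FPKM + 1) and log2(FPKM + 0.1). With 1 line left out it was -0.20 to -0.19, without a test. Without the replicate block, that is without the pairing by line, 0 genes passed for decitabine and the median shared fold was -0.21. In the line test without treatment as a term, 16 genes were higher and 3 lower in SCC15, against 17.8% and 18.9% of all genes. The 3 lost were MRPL17, MRPS10 and MRPS15. The 6 genes lower in SCC15 became 11 under total-count scaling and 15 in both limma analyses. Of all genes, 26.6% were lower under total-count scaling, 25.4% for log2(FPKM + 1) and 27.5% for log2(FPKM + 0.1). The median line difference of 0.18 became 0.028 under total-count scaling, 0.024 for log2(FPKM + 1) and 0.028 for log2(FPKM + 0.1). The 2 genes past 2-fold in SCC15 became 1, MRPL1, under total-count scaling or with a prior count of 5. With the GC trend removed neither was past it and 1 other, MRPL20 (-1.01), was. With the length trend removed there were 4, with MRPL32 and MRPL42 added. Counts of calls with 1 line or 1 treatment left out were not made, since no residual degrees of freedom remained.

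Among single genes, none of the following changed a call for decitabine. The shared log2 fold changed sign once the GC trend was removed, to -0.19 for MRPL41, -0.031 for MRPL55, -0.015 for MRPL34, -0.056 for MRPL14, -0.023 for MRPL28, -0.18 for MRPS18A, -0.087 for MRPL10, 0.16 for MRPS18C and 0.16 for MRPS36. With the length trend removed it was -0.0057 for MRPL10. Under total-count scaling it was 0.072 for MRPL24, 0.012 for MRPS18C, 0.071 for MRPL23 and 0.020 for MRPS16. In limma on log2(FPKM + 1) and log2(FPKM + 0.1) it was 0.067 and 0.073 for MRPL24, 0.0022 and 0.0079 for MRPS18C, 0.052 and 0.072 for MRPL23, and 0.019 and 0.019 for MRPS16. For MRPS24 it was 0.033 on log2(FPKM + 1) and 0.091 without the block.

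The line difference changed sign in genes that were not called. It was -0.070 for MRPL19, -0.14 for MRPL28, -0.056 for MRPS18C, -0.030 for MRPS36 and -0.071 for MRPS16 under total-count scaling. On log2(FPKM + 1) and log2(FPKM + 0.1) it was -0.0635 and -0.069 for MRPL19, -0.13 and -0.14 for MRPL28, -0.016 and -0.045 for MRPS18C, -0.027 and -0.029 for MRPS36, and -0.069 and -0.070 for MRPS16. For MRPL28 it was also -0.012 with median-ratio size factors, with a filter of 30 reads and in DESeq2, and -0.11 with the GC trend removed, and for MRPL46 it was 0.022 without the block. Of the 5 genes that newly passed as lower in SCC15 under total-count scaling and the 9 in each limma analysis, MRPL55 and MRPL24 were in all 3 (adjusted p = 0.0472 and 0.0446 under total-count scaling). Over all 78 genes, 8 lost their line call in at least 1 analysis, MRPL17 in 3, MRPL44, MRPS10 and MRPS21 in 2 each, and MRPL51, MRPS14, MRPS15 and MRPS34 in 1 each, with adjusted p between 0.0508 and 0.0765. DESeq2 lost MRPL44, MRPS14 and MRPS21 on the high side and MRPL17 on the low side, and 0 others. The causes of these changes were not tested.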
